A study of Mus musculus with 3 samples.

Results

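The 10 genes described here encode enzymes of glycolysis in mouse neurons, from the hexokinase Hk1 to the lactate dehydrogenase subunit Ldhb. The others are Gpi1, Pfkp, Aldoa, Tpi1, Gapdh, Pgk1, Eno2 and Pkm. They were found by gene symbol among 20823 genes whose longest annotated transcript has a 5′UTR, a coding sequence (CDS) and a 3′UTR, and all 10 were present. Ribosome profiling, in which the mRNA fragments shielded by ribosomes from nuclease are sequenced as footprints, was done on primary neurons cultured from embryonic cortex of CD-1 mice. The Chx group was given cycloheximide for 2 min, the Harr group harringtonine over 2 min with a cycloheximide pulse after it, and the WT group no drug. These groups follow the titles and treatment labels, while the free-text descriptions of the same libraries name cell fractions of depolarised neurons, which belong to another experiment of the study. Cycloheximide arrests ribosomes during elongation, and harringtonine stops ribosomes at initiation and lets those farther along run on. All 3 groups were rinsed and lysed in buffer that itself contained 100 μg per ml of cycloheximide, so WT lacked only the drug given to living cells. Each group is 1 library made from 3 pooled dishes, so differences between groups have no replicate check, and p-values are not given. All intervals are 95% intervals that cover counting error only, because amplified reads need not be independent molecules.

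Glycolysis splits a hexose into a pair of triose phosphates at the expense of ATP, and then oxidises them to pyruvate with a net gain of ATP and NADH. Lactate dehydrogenase interconverts pyruvate and lactate and so returns NADH to NAD. In brain, several steps are served by isoenzymes that mark cell types, with Eno2 the form typical of neurons and Aldoc and Ldha forms that are also used in astrocytes. Many of these mRNAs are abundant, and several have left numerous processed pseudogenes in the mouse genome.

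Chx had 35722483 aligned reads, Harr 9754412 and WT 30219197, of which 56.6%, 38.7% and 55.2% lay in the CDS of the longest transcripts of all genes. At these depths 3 counts correspond to 0.0840, 0.308 and 0.0993 reads per 1000000 aligned reads, so the Harr values are the least precise. The labelled cell type was checked on its markers. The 8 neuronal markers together gave 4558 (Chx), 4041 (Harr) and 4727 (WT) CDS reads per 1000000 aligned reads and none was at 0, with Map2, a neuronal microtubule protein with a long CDS, at 2075, 2904 and 2231 of these. The Harr sum rested on Map2, and each of the other 7 markers was lower in Harr than in Chx. The 4 astrocyte markers gave 195, 78.8 and 213, the 4 microglial markers 2.80, 1.44 and 2.68, and the 4 oligodendrocyte markers 87.6, 27.4 and 82.4, with Mog and Mobp at 0 reads in all 3 libraries and Olig1, a transcription factor of the oligodendrocyte lineage, holding most of the rest. The part that the astrocyte and oligodendrocyte reads play in the values below was not tested. In such bulk samples fewer cells of a type and less RNA per cell cannot be told apart.

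The sequence around the start codons of 9 of the genes is shown because reads were counted at their 5′ end, which places the footprint of a ribosome on the start codon in the bases just upstream of it. Windows run 5′ to 3′ on the transcript, with 15 bases before the start codon and the start codon in capitals. They come from GENCODE M21 transcripts on GRCm38 (mm10).
Hk1: tcccccaccgtcaacATGatcgccgcgcaa
Gpi1: ctcgggtccctcgccATGgctgcgctcacc
Pfkp: ctctacctcctcatcATGagtgacttggat
Aldoa, short form: actgccaccggcaccATGccccacccatac
Aldoa, long form: caggcaaggtgacccATGgcaacgcgcagg
Tpi1, annotated start: gaggtggagaggcagATGgaggggaaggcg
Tpi1, downstream in-frame ATG: cttgagcctggtacaATGgcgcctaccagg
Pgk1: cacggtgttgccaaaATGtcgctttccaac
Eno2: gagatcccagccatcATGtctatagagaag
Pkm: aggacttcaggaaccATGccgaagccacac
Ldhb: tcttttctggacaagATGgcaacccttaag

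A purine lies 3 bases before the start codon, the position most important in the vertebrate initiation context, in every window above except the annotated start of Tpi1 and the long form of Aldoa, which have C there. The share of all genes with a purine at this position was 84.1% of 20639 ATG starts. An ATG within the 5′UTR was present in the longest transcripts of Hk1 (2), Eno2 (2), Gapdh (1) and Pkm (1), and in 55.4% of 20690 genes. On the most read transcripts Aldoa, in its short form, had 1 and Pkm had 0.

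Sequence shared with other loci limits what the counts of some of these genes can say. Of the 25-nucleotide words of the CDS, 0% were found in transcripts of other loci for Pfkp, 0.0766% for Eno2 and 0.181% for Hk1. The share was 41.9% for Tpi1, 52.2% for Aldoa, 55.8% for Gpi1, 60.1% for Ldhb, 83.0% for Pkm, 98.2% for Pgk1 and 100% for Gapdh. Gapdh shared words with 376 other genes, of which 364 are annotated pseudogenes. For Pgk1 the pseudogene Pgk1-rs7 alone carried 98.2% of the words, and Pgk1 still held reads in every one of its 11 coding segments. Reads of near-identical sequence may be counted at several loci, split among them or dropped. The study's methods keep multiple alignments in the search for reading frames on these treatments, but no source used here links the count tables to it, so the levels of Gapdh in particular are uncertain.

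The first question was how much of the neurons' translation these enzymes took up. Their summed CDS reads were 86557 in WT, 102818 in Chx and 13499 in Harr. As a share of all CDS reads this was 0.519% for WT (Wilson interval 0.516 to 0.523), 0.509% for Chx (0.506 to 0.512) and 0.358% for Harr (0.352 to 0.364). The share was thus close between Chx and WT and lower in Harr. Levels of single genes are given as RPKM, the CDS reads per kilobase of CDS and 1000000 aligned reads, with exact Poisson intervals for WT.

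Hk1, the hexokinase that traps glucose as glucose 6-phosphate and the main form in brain, had 95.02 RPKM in Chx, 90.0 in Harr and 87.2 in WT (85.2 to 89.2). Its start codon lies at chr10:62340073-62340075 on the minus strand. Gpi1, which isomerises glucose 6-phosphate to fructose 6-phosphate, had 126 in Chx, 43.5 in Harr and 116 in WT (113 to 119). Pfkp, the platelet-type subunit of phosphofructokinase, which catalyses the committed step, had 54.4 in Chx, 45.2 in Harr and 46.5 in WT (44.9 to 48.1). The 3 enzymes before the split of the hexose were therefore the lower part of the pathway's levels in WT, apart from Gapdh.

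Aldoa, the aldolase that cleaves fructose 1,6-bisphosphate, stood highest in WT and Chx, with 511 RPKM in Chx, 163 in Harr and 533 in WT (526 to 541), rank 133 among all genes in WT. Tpi1, which interconverts the triose phosphates, had 212 in Chx, 206 in Harr and 210 in WT (205 to 216) and was the highest of the 10 in Harr. Gapdh, which oxidises glyceraldehyde 3-phosphate, had 22.9 in Chx, 2.66 in Harr and 20.8 in WT (19.2 to 22.5), from 819, 26 and 631 reads. Its last coding segment of 70 nucleotides and its 3′UTR held 0 reads in all 3 libraries, which allows up to 3 counts in each. The protein-coding copies Gm10358 and Gm3839, which carry 87.1% and 82.3% of the Gapdh words, held reads of like number in Chx and WT, with 740 (Chx), 67 (Harr) and 572 (WT) for Gm10358 and 699, 19 and 588 for Gm3839.

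Pgk1, the kinase that makes the first ATP of the second phase, had 372 RPKM in Chx, 150 in Harr and 400 in WT (394 to 407). Eno2, the neuronal enolase, had 203 in Chx, 67.2 in Harr and 197 in WT (193 to 202). Pkm, the pyruvate kinase of brain and muscle that makes the second ATP, had 289 in Chx, 128 in Harr and 295 in WT (291 to 300). Ldhb, the heart-type subunit of lactate dehydrogenase, had 226 in Chx, 82.9 in Harr and 208 in WT (203 to 213). In WT the order by length-scaled level was Aldoa, Pgk1, Pkm, Tpi1, Ldhb, Eno2, Gpi1, Hk1, Pfkp and Gapdh, and Tpi1 and Ldhb were the only neighbours in that order whose counting intervals overlapped.

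**Figure D1:**
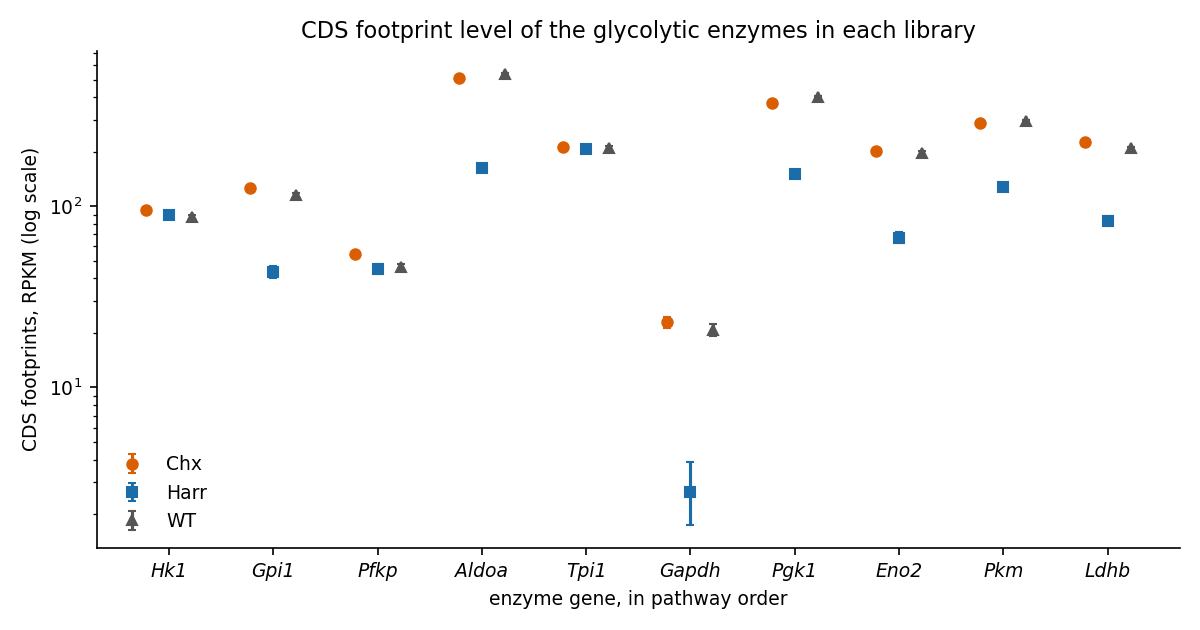
CDS level of each enzyme gene in RPKM on a log axis (points, 1 library each; bars, 95% Poisson counting intervals), with genes in pathway order on the horizontal axis. Chx and WT lie close together for each gene, while Harr lies lower for Gpi1, Aldoa, Gapdh, Pgk1, Eno2, Pkm and Ldhb and near the other libraries for Hk1, Pfkp and Tpi1.

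The libraries were next compared gene by gene, as log2 ratios after CDS counts were scaled to 1000000 CDS reads in each library, which removes the lower CDS share of Harr. Between Chx and WT these genes differed little. The median of the 10 log2 ratios was 0.04, with all genes at 0.03, and the range was -0.14 for Pgk1 to 0.19 for Pfkp. None of the 10 was at least 2-fold higher in Chx with an interval excluding 0, where 0.201% of 11459 genes were. Between Harr and Chx the median was -0.83, with all genes at -0.05. Gapdh had -2.53 (SE 0.28), Aldoa -1.10 (SE 0.03) and Eno2 -1.05 (SE 0.05), and these 3 of 10 were at least 2-fold lower in Harr by the same rule, where 13.7% of all genes were. Gpi1 at -0.98, Ldhb at -0.90, Pgk1 at -0.76 and Pkm at -0.62 were lower by less than that. Tpi1 at 0.50, Hk1 at 0.47 and Pfkp at 0.28 were higher in Harr on this scale, while their RPKM values above, scaled to all aligned reads, were lower in Harr than in Chx. On that scale the median of the 10 was -1.38. The Tpi1 ratio rested on its first coding segment, which held 88.5% of its CDS reads in Harr and 34.1% in Chx. Its later segments held at most 10.5 Harr reads per 100 Chx reads, where all genes together had 18.7. Against WT the median was -0.86, with all genes at 0.00, and the same 3 genes passed the rule, with Gapdh at -2.43, Aldoa at -1.20 and Eno2 at -1.04, where 14.3% of all genes did. Without Gapdh, a choice made after seeing the data, the median was -0.76 against Chx and -0.82 against WT. Coding segments in which at most 10% of the words occur elsewhere remain for 5 of the genes. They gave 0.47 for Hk1, 0.28 for Pfkp and -1.05 for Eno2 in Harr against Chx, and -2.82 (SE 0.25) for the 2 such segments of Gpi1. These Gpi1 segments are centred 444 and 559.5 nucleotides from the start codon, where Harr reads were sparse, as described below. Position and shared sequence thus cannot be told apart in that value. The Aldoa segment that remains, the first coding segment of the long form, had 18 Chx and 4 Harr reads and gave 0.38 (SE 0.76). The median was 0.28 with this Aldoa segment and -0.38 without it, a choice made after seeing the data, and against WT 0.46 and -0.28, so its sign rested on that segment.

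The ratio in Harr was set beside the length of the CDS, since a ribosome has farther to move on a long one. Over all genes this ratio, Harr over Chx, had a median of -0.54 for a CDS of 600 to 1200 nucleotides, -0.07 for 1200 to 2000 and 0.30 for 2000 to 3000. Hk1, with 2757 nucleotides, and Pfkp, with 2355, lay near the median of genes of like length, at percentiles 57.3 and 52.2. The 5 enzymes with 1200 to 2000 nucleotides lay lower, with percentiles of 3.18 for Gpi1, 9.99 for Aldoa, 10.4 for Eno2, 12.9 for Pkm and 21.9 for Pgk1. Of the 3 shortest, Ldhb was at 28.1, Gapdh at 0.365 and Tpi1 at 92.4, a value that rested on the first coding segment of Tpi1, as given above. Across the 10 genes Spearman's rho between CDS length and ratio was 0.24, a description only, where it was 0.59 across all genes. The members share the libraries, and several share sequence with other loci, as given above.

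**Figure D2:**
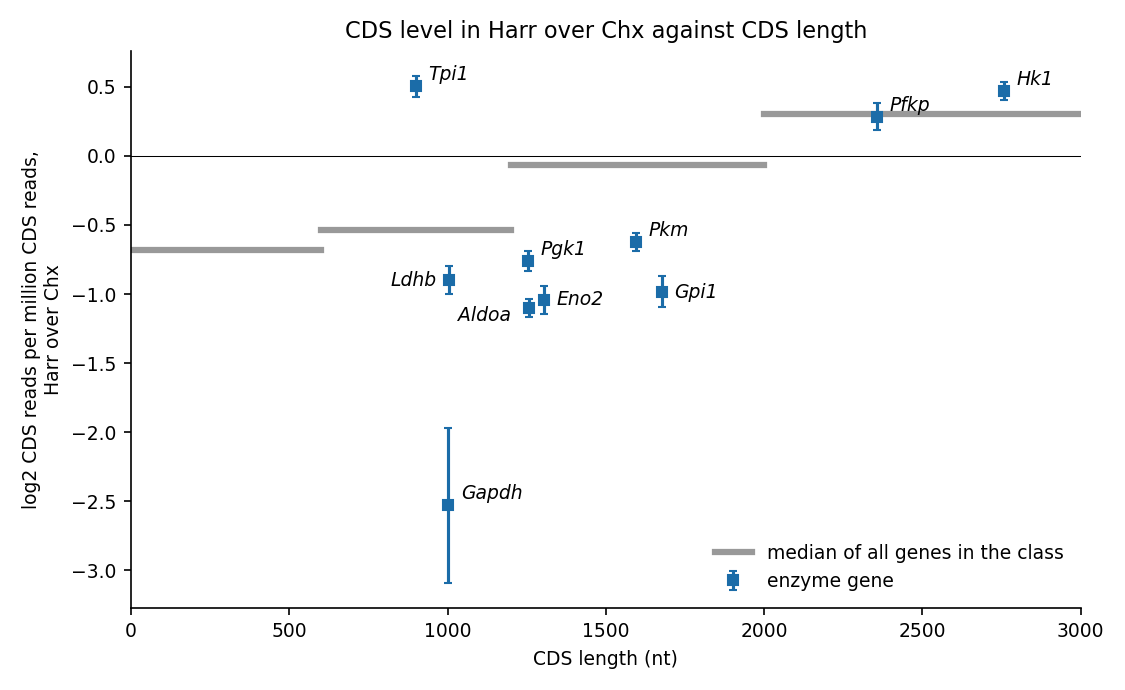
Log2 of Harr over Chx CDS reads, each per 1000000 CDS reads of its library (vertical axis) against CDS length in nucleotides (horizontal axis) for the 10 enzyme genes (squares; bars, 95% counting intervals), with the median of all genes in 4 length classes as grey lines. Hk1 and Pfkp sit close to the line of their class, Tpi1 at 0.50 sits above its class and Gapdh at -2.53 far below it.

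Along the CDS, Harr footprints were sparse in the first coding segments after the one that holds the start codon and denser toward the stop codon. As a reference, Harr held 18.7 CDS reads for every 100 in Chx over all genes. In Hk1 the segment centred 543 nucleotides from the start codon held 143 reads in Chx and 2 in Harr, or 1.40 Harr reads per 100 Chx reads, and the segment centred at 1887 nucleotides held 267 and 123, or 46.1. From the segment centred at 1417.5 nucleotides on, the Hk1 ratio lay between 32.4 and 46.1, with 38.3 in the last segment. In Pfkp the ratio went from a lowest value of 1.85 per 100 at 356 nucleotides to 57.1 in the last segment. These 2 longest members are also among those nearly free of sequence found elsewhere.

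In Gpi1 the ratio was 0.820 per 100 at 777 nucleotides, from 1 Harr read and 122 Chx reads, and 67.9 in the last segment, the highest coding value among the 10 genes outside the segments with start codons. In Eno2 it was 2.68 at 377 nucleotides and 44.9 in the last segment. In Pgk1 it went from 2.83 at 90 nucleotides to 40.4 in the last segment, and in Pkm from 3.43 at 200 to 36.5. The last segment had 18.4 Harr reads per 100 Chx reads in Aldoa, 12.7 in Ldhb and 10.5 in Tpi1, after lowest values of 2.31, 1.20 and 3.66. In Tpi1 the segments in between stayed between 3.66 and 4.08 per 100. Gapdh had too few Harr reads for such a course, with 0.39 and 7.83 per 100 in the 2 segments that held over 100 Chx reads.

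**Figure D3:**
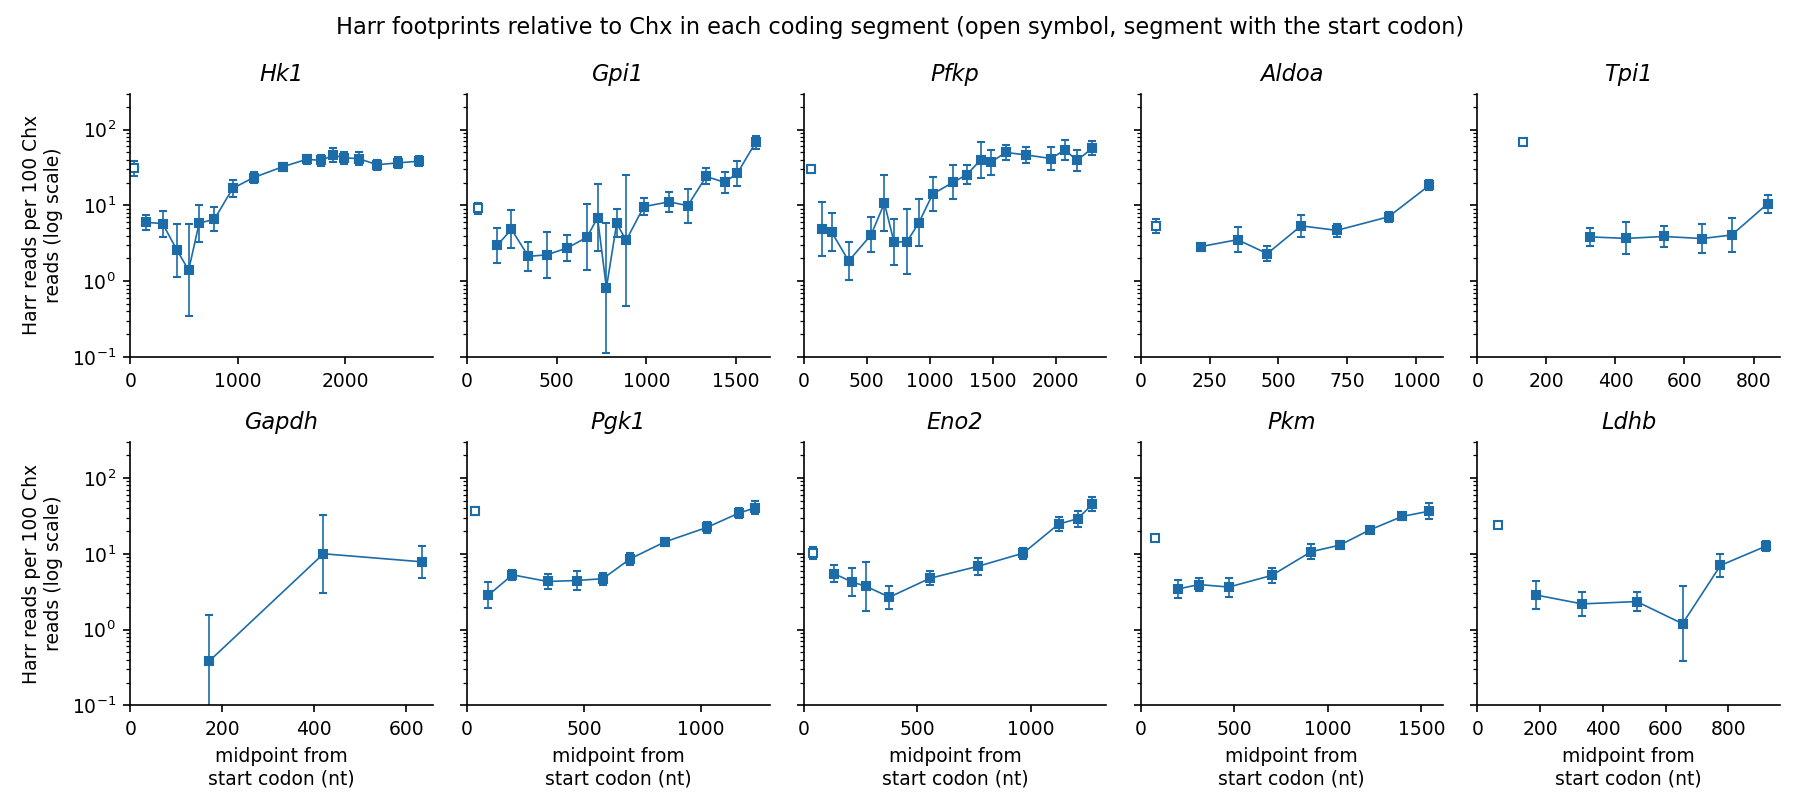
Harr reads per 100 Chx reads (log axis) in each coding segment against the distance of the segment's midpoint from the start codon in nucleotides, for the 10 genes (bars, 95% counting intervals; open symbols, segments with the start codon; segments with under 20 Chx reads or 0 Harr reads are not drawn; Aldoa is the short form and Pkm the M1 form). Low ratios, such as 1.40 in Hk1 and 0.820 in Gpi1, lie in segments between the start codon and the last segments, and the ratio is higher toward the stop codon, up to 67.9 in Gpi1.

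Pooled over the members in bins of 300 nucleotides, with the segment holding the start codon left out, the log2 ratio of Harr over Chx per 1000000 CDS reads was -2.46 (SE 0.04) at 300 to 600 nucleotides, where all genes gave -1.41. It was -1.58 at 600 to 900 (all genes -0.59), -0.43 at 900 to 1200 (0.30) and 0.58 at 1200 to 1500 (0.87). From 1500 nucleotides on it was 1.22 and then 1.28, 1.12 and 1.00, beside 1.15, 1.09, 1.16 and 1.00 over all genes. The last of these bins held segments of Hk1 alone and the 2 before it those of Hk1 and Pfkp. At positions on the longest transcripts the enzymes were thus below all genes from 300 to 1500 nucleotides and close to them or above after 1500. The first bin was at -0.76, above all genes at -1.17, and 1099 of its 1605 Harr reads lay in the Aldoa segment that holds the start codon of the short form. Without that segment, left out after seeing the data, the first bin was at -2.09 (SE 0.07), below all genes. The later bins were not redone for the short form of Aldoa, which starts 162 nucleotides further on. In the 300 to 600 bin 1 Aldoa segment held 9433 of 33003 Chx reads. It is centred at 380 nucleotides on the long form and at 218 on the short form.

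When each CDS was split at its midpoint, the later part held relatively more reads in Harr than in the other libraries. The median log2 odds ratio of later against earlier reads was 1.90 in Harr against Chx, with all genes at 1.20, and 8 of 10 members passed the 2-fold rule, where 49.0% of all genes did. Pfkp had the highest value, 3.26 (SE 0.17), from 2066 earlier and 1493 later reads in Chx and 92 and 639 in Harr. Aldoa had -0.15 (SE 0.08) on its longest transcript and 1.54 on the short form. Tpi1 had 0.46 (SE 0.21) and was the other member that did not pass. Against WT the median was 1.89, with all genes at 1.23, and 8 of 10 passed, where 50.6% of all genes did. Between Chx and WT the median was 0.03, with all genes at 0.01, and 0 of 10 passed in the higher direction, where 1.57% of all genes did. Gapdh, at -1.36, was lower in Chx by more than 2-fold, from 549 earlier and 268 later reads in Chx and 278 and 350 in WT.

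Outside the CDS, the 5′UTRs of the 10 genes together held 7186 Harr, 5582 Chx and 3782 WT reads, although the Harr library was the smallest. As shares of the genes' reads these were 32.8%, 5.15% and 4.17%, where all genes had 33.5%, 8.71% and 6.14%. In Gpi1 the 5′UTR held 1273 Chx, 1443 Harr and 730 WT reads, or 14.4%, 64.2% and 11.05% of the gene's reads. In Pgk1 it held 588, 906 and 752 reads, or 3.40%, 31.9% and 4.71%. In Hk1 the shares were 5.03%, 14.7% and 3.03%, and in Pfkp 3.09%, 18.7% and 4.45%, the lowest Harr shares among members with 5′UTR reads apart from Aldoa at 14.7%. That Aldoa share is for the long form. On the short form, its most read transcript, the shares were 6.81%, 52.0% and 5.78%. In each of the 9 genes with 5′UTR reads the Harr share stood above both others.

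The difference was measured by the log2 odds ratio, 5′UTR reads over CDS reads in one library against another. In Harr against Chx the median over 9 members was 3.71, with all genes at 2.46, and 9 of 9 passed the 2-fold rule, where 88.8% of all genes did. The range was 1.71 (SE 0.10) for Hk1 to 6.06 (SE 0.38) for Gapdh, whose few reads and shared sequence are given above and whose 5′UTR overlaps the CDS of another Gapdh transcript, and Eno2 had 4.38 (SE 0.15). In Harr against WT the median was 3.93, with all genes at 3.23, and 9 of 9 passed, where 93.7% of all genes did. These counts are near the share over all genes. In Chx against WT the median was -0.19, with all genes at 0.67, and 1 of 9 passed in the higher direction, where 30.2% of all genes did. That gene was Ldhb at 1.78 (SE 0.12), whose 5′UTR held 828 reads in Chx but 188 in WT. The sign of the Chx to WT median was not stable. It was 0.078 without Gapdh, chosen after seeing the data, and 0.25 on the most read transcripts.

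Where the 5′UTR is split by an intron, the piece next to the start codon shows how close to it the reads lay. In Pkm this piece is 13 nucleotides long and held 1298 Chx, 1793 Harr and 993 WT reads, or 99.8, 138 and 76.4 reads per nucleotide, while the first coding segment had 28.0, 4.55 and 21.9. In the short form of Aldoa the 21-nucleotide piece held 1215, 1003 and 790 reads, or 57.9, 47.8 and 37.6 per nucleotide, against 15.9, 0.857 and 14.8 in the first coding segment. In Pkm the piece was the densest of all segments in each library. In Aldoa it was so in Chx and Harr, while in WT the second coding segment, at 48.5 reads per nucleotide, was denser. In Ldhb the piece next to the start codon is only 6 nucleotides long. Reads of a ribosome on the start codon may therefore begin in the outer exon. Most 5′UTR reads of Ldhb lay in that exon, at distances that the counts do not give, although the piece next to the start codon was denser. The outer exon of 105 nucleotides held 774 Chx, 482 Harr and 141 WT reads, or 7.37, 4.59 and 1.34 per nucleotide, and the 6-nucleotide piece next to the start codon held 54, 109 and 47, or 9.0, 18.2 and 7.83 per nucleotide. In Eno2 the 15-nucleotide piece held 56, 104 and 126 reads and the outer 237 nucleotides 109, 207 and 59.

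Tpi1 was the exception, with 0 reads in its annotated 5′UTR of 24 nucleotides in all 3 libraries, which allows up to 3 counts in each. Its first coding segment, 265 nucleotides long, held 2326, 1597 and 1803 reads (Chx, Harr, WT), or 34.1%, 88.5% and 31.5% of the gene's CDS reads. That segment contains in-frame ATGs at 39, 150 and 192 nucleotides after the annotated start, each with A at 3 bases before it. The one shown above, at chr6:124814120-124814122 on the minus strand, would leave a CDS of 750 nucleotides. The counts do not place reads within the segment. The remaining Tpi1 segments held 3.66 to 10.5 Harr reads per 100 Chx reads, so the CDS level of Tpi1 in Harr rested on this first segment.

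Aldoa has more than 1 annotated start. The long form begins at chr7:126798112-126798114 on the minus strand, and its first coding segment of 141 nucleotides held 18 Chx, 4 Harr and 14 WT reads. The short form begins 162 nucleotides further on, at chr7:126797753-126797755, and leaves a CDS of 1095 nucleotides. On the short form the CDS ratio of Harr to Chx was -2.04 (SE 0.05) in place of -1.10, and the 5′UTR to CDS log2 odds ratio was 4.50 (SE 0.07) in place of 3.99. The reads next to the short form's start codon count as CDS in the long form.

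**Figure D4:**
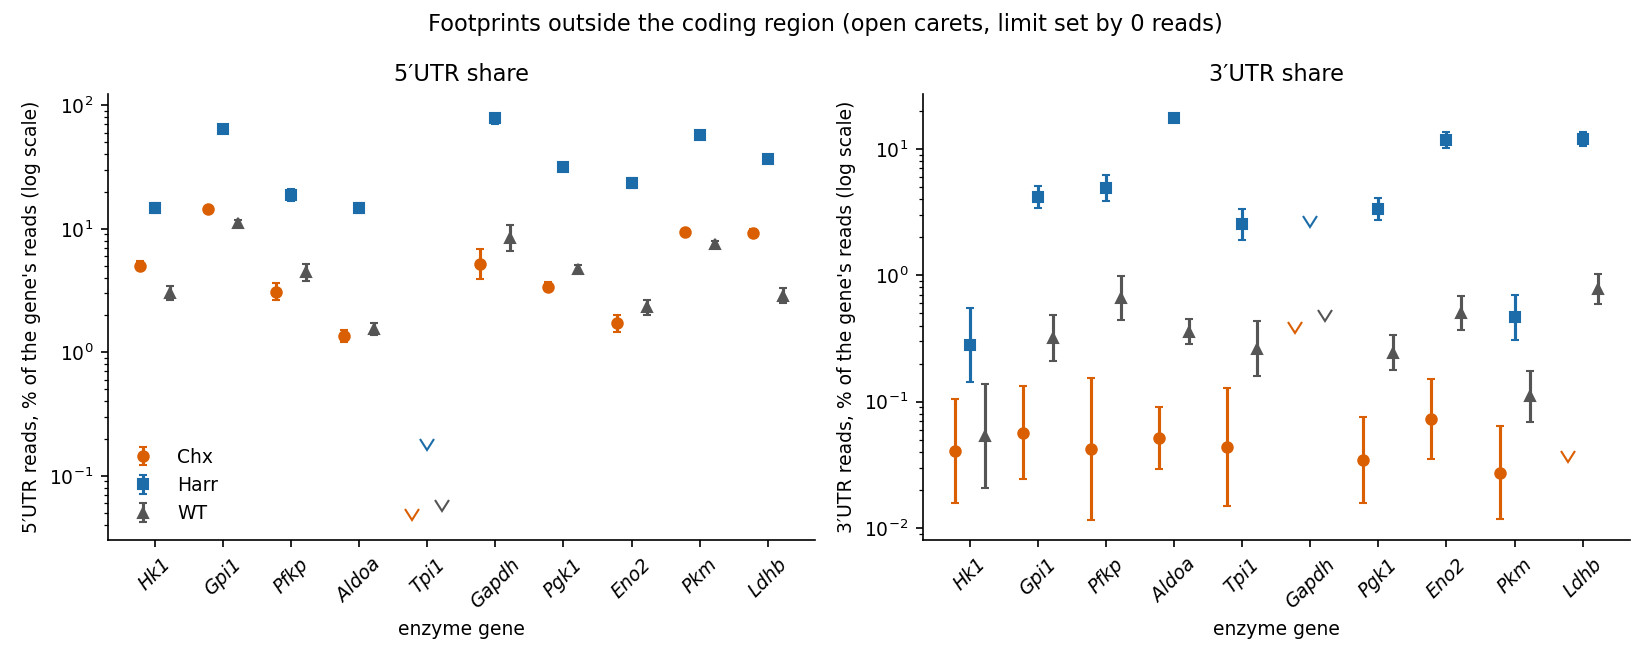
Share of each gene's reads that lay in the 5′UTR (left) and the 3′UTR (right) of the longest transcript, in percent on log axes, for the 3 libraries (points; bars, 95% Wilson intervals; open carets, the limit of 3 counts where 0 reads were found). Harr is highest in each gene with reads, 64.2% of Gpi1 reads in the 5′UTR and 17.5% of Aldoa reads in the 3′UTR, and Tpi1 has carets for the 5′UTR and Gapdh for the 3′UTR.

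The 3′UTR, where few ribosomes are expected after the stop codon, held 1194 reads of these genes in Harr but 44 in Chx and 284 in WT. These were 5.46%, 0.0406% and 0.313% of the genes' reads, where all genes had 4.10%, 1.71% and 2.18%. The 3′UTRs of the 10 longest transcripts used here overlap no CDS, while those of all genes were not restricted in this way. The enzymes together were below all genes in Chx and WT and above them in Harr, where Aldoa held 515 of the 1194 reads. Without Aldoa, left out after seeing the data, the Harr share was 3.59%, below that of all genes, and 5 of the 10 genes lay below 4.10%. Aldoa held 12 Chx, 515 Harr and 74 WT reads, or 0.0516%, 17.5% and 0.358% of its reads. In Harr its 3′UTR had 2.81 reads per nucleotide, above the 2.14 of its last coding segment. Eno2 held 7, 155 and 40 reads, Pgk1 6, 95 and 39, and Gpi1 5, 94 and 21. Ldhb held 0 Chx, 191 Harr and 51 WT reads, and with 3 counts set in place of the 0 its 3′UTR to CDS ratio in Harr stood at least 636-fold higher than in Chx. Hk1, the gene with the longest CDS, held 4, 8 and 4 reads and Pkm 5, 22 and 17, so the Harr excess was small in number there.

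In Harr against Chx the median log2 odds ratio of 3′UTR against CDS reads was 7.06, with all genes at 3.76. Of the members with enough reads 9 of 9 passed the 2-fold rule, where 86.5% of all genes did. All of them but Aldoa reached the read minimum only with their Harr reads, so the count is tied to that minimum. With so few Chx reads a gene without Harr reads could not enter, so the count cannot show how common the rise is. The median stayed at 7.06 with Ldhb at its bound. The lowest value was 2.87 (SE 0.84) for Hk1. Pfkp, with 2 Chx reads, had 6.89 (interval 5.07 to 8.72) and Tpi1, with 3, had 5.68 (4.11 to 7.25). In Harr against WT the median was 4.32, with all genes at 2.59, and 9 of 9 passed, where 79.8% of all genes did, with Aldoa highest at 6.13 (SE 0.18). In Chx against WT the 3′UTR share was lower in Chx. The median over 8 members was -2.73, with all genes at -0.93, and 8 of 8 passed in the lower direction, where 38.9% of all genes did. All 8 but Aldoa reached the minimum only with their WT reads, so this count too is tied to it. Hk1, with 4 reads in each library, fell below the minimum and had -0.37 (SE 0.96), and Gapdh had 0 reads. Ldhb was at least 21.8-fold lower in Chx than in WT on the same floor.

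Some of these enzymes have alternative exons, and the footprints on them were compared. Pkm has a mutually exclusive pair of 167 nucleotides each that distinguishes the M1 and M2 forms of the enzyme, where M1 is the constitutively active form of differentiated tissue and M2 the regulated form of proliferating cells. The M1 exon, chr9:59675029-59675195, and the M2 exon, chr9:59675568-59675734, differ at 64 of 167 positions. The windows that differ most, exon positions 44 to 73, show why reads can be told apart, and capitals mark bases that differ.
M1: tTgaAgaGctTGTGcgAGCCTcCAGTCACT
M2: tCgaGgaActCCGCcgCCTGGcGCCCATTA

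The M1 exon held 3440 Chx, 708 Harr and 2481 WT reads, and the M2 exon 252, 29 and 231. The M2 share was 8.52% in WT (Wilson interval 7.52 to 9.63), 6.83% in Chx (6.06 to 7.68) and 3.93% in Harr (2.75 to 5.59). M1 was thus the main form read in all 3 libraries, although the longest annotated transcript is the M2 form. Of the 25-nucleotide words in the M2 exon, 73.7% also occur at other loci, against 5.99% in the M1 exon, and the part this plays in the M2 share was not tested. The Harr interval overlaps neither the WT nor the Chx interval. There is 1 library on each side.

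Pfkp has a similar pair of exons of 153 nucleotides. The upstream exon of the pair, chr13:6597859-6598011, held 240 Chx, 120 Harr and 233 WT reads, and the downstream exon, chr13:6593101-6593253, 16, 5 and 24. The downstream share was 6.25% (3.88 to 9.91), 4.00% (1.72 to 9.02) and 9.34% (6.36 to 13.5), with overlapping intervals. In Hk1 the first coding exon of the form whose transcript was used held 348, 107 and 297 reads. The first 2 coding exons of an alternative Hk1 form that starts farther upstream held 0 reads in all 3 libraries, which allows up to 3 counts in each, and an internal exon added in that form held 8, 1 and 0. In Aldoa the outer 5′UTR exon nearer to the gene body held 372, 627 and 409 reads and the one farther upstream 47, 51 and 31.

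**Figure D5:**
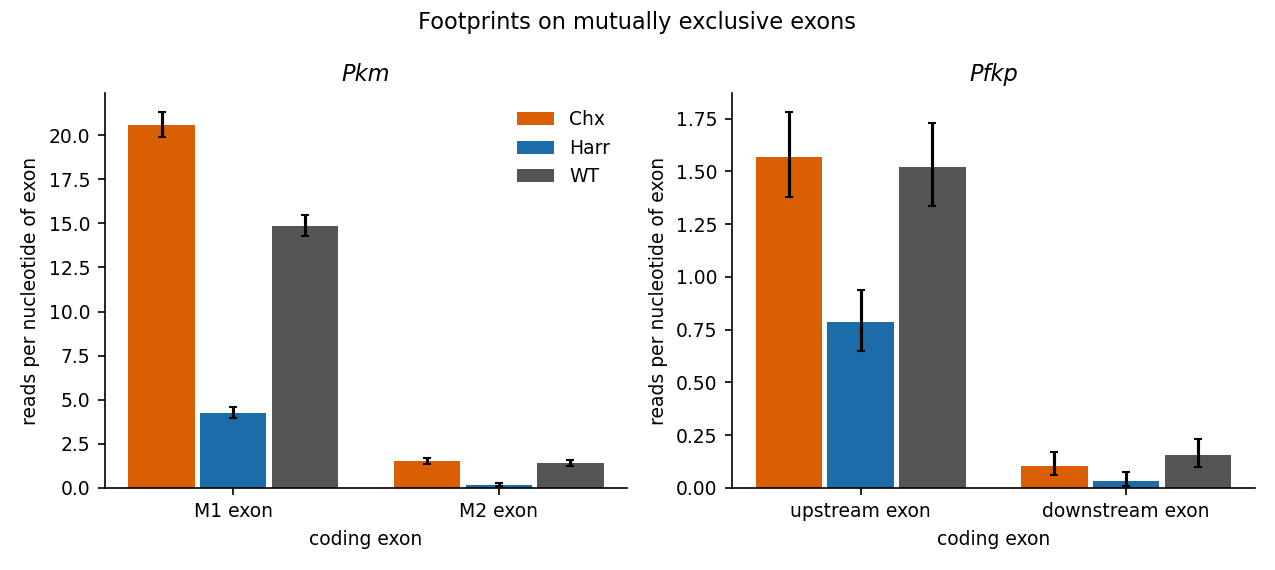
Footprints per nucleotide of exon on the mutually exclusive coding exons of Pkm (left) and Pfkp (right) in the 3 libraries (bars from 0; error bars, 95% Poisson counting intervals; libraries differ in depth). In Pkm the M1 exon has 20.6 reads per nucleotide in Chx and the M2 exon 1.51, and in Pfkp the upstream exon has 1.57 and the downstream exon 0.105.

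Beside these 10 genes, 20 other genes of glycolysis were measured, isoenzymes of the same steps and the phosphoglycerate mutases, and 7 of them had at least 1000 CDS reads over the 3 libraries. Pgam1, the mutase between Pgk1 and the enolases, had 437 RPKM in Chx, 154 in Harr and 399 in WT. Pfkm, the muscle-type phosphofructokinase, had 71.7, 58.9 and 72.0 and so stood above Pfkp in each library, and Pfkl, the liver type, had 17.9, 13.3 and 14.8. Eno1, the enolase of most tissues, had 122, 45.5 and 112, and its close copy Eno1b, which carries near-identical sequence, had 236, 88.8 and 237, so that their reads are uncertain. Ldha, the muscle-type lactate dehydrogenase subunit, had 159, 41.4 and 147, below Ldhb in each library, and Aldoc had 21.3, 2.91 and 22.6. In Harr against Chx the CDS ratio was -0.87 in the median of the 10 of these genes with at least 100 CDS reads, and 3 were at least 2-fold lower, where 13.7% of all genes were, namely Aldoc at -2.30, Ldha at -1.39 and the muscle mutase Pgam2 at -1.41, the last from 142 reads over the 3 libraries. Pfkm at 0.26 and Pfkl at 0.12 lay close to Pfkp at 0.28. For the 5′UTR against the CDS, 8 of 8 passed the 2-fold rule in Harr against Chx, near the 88.8% of all genes.

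Of 8 regulators of glycolysis measured, 7 had at least 100 CDS reads, with a median log2 CDS ratio of -0.52 in Harr against Chx and 1 of the 7 at least 2-fold lower, the fructose bisphosphatase Tigar at -1.07, a share near the 13.7% of all genes. Hif1a, the oxygen-regulated transcription factor that drives glycolytic genes, had 40.8 RPKM in Chx, 29.97 in Harr and 38.6 in WT, and Pfkfb3, which makes the activator of phosphofructokinase, had 13.5, 6.41 and 14.7. Among 9 transport genes, Slc2a3, the neuronal glucose transporter GLUT3, had 124, 75.7 and 114 RPKM, and Bsg, the chaperone of the lactate transporters, had 427, 198 and 474. Slc16a7, the neuronal lactate transporter, had 23.5, 10.1 and 20.1. The mitochondrial pyruvate carrier subunits Mpc1 and Mpc2, both with a CDS shorter than 600 nucleotides, were the 2 of 8 transport genes with at least 100 CDS reads that were at least 2-fold lower in Harr than in Chx, at -2.87 and -1.83, where 13.7% of all genes were.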

How the data were processed

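The authors deposited 9 Plastid tables, 1 per library and region, in which each line is an exon segment of a transcript. The deposited counts are whole, unnormalized reads per segment, the deposited signal is reads per nucleotide, and the deposited RPKM is per kilobase of segment and 1000000 aligned reads. Per the file headers, reads of 25 to 100 nucleotides aligned to mm10, without ribosomal reads and duplicates, were counted at their 5′ end with an offset of 0, so reads of ribosomes on a start codon fall in the 5′UTR. The study's methods name TopHat for the search for reading frames on these treatments and Rsubread for Plastid counts of another experiment. Which of them made these tables is not stated.

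Here only counts were used, with Python 3.11.15, pandas 2.3.3 and scipy 1.17.1. Of 142446 transcript identifiers, 99.4% matched GENCODE M21, and the longest transcript per gene symbol was taken. Ratios are log2 with 0.5 added to each count. CDS ratios were compared over genes with at least 100 CDS reads, and UTR ratios over genes with at least 10 reads in the UTR in the pair. A gene passed at a 2-fold difference in the stated direction with a 95% counting interval excluding 0. An equal difference passes more easily in a gene with more reads, and members and all genes were not matched for depth. Splits of the CDS used genes of 700 to 3000 nucleotides without the segment holding the start codon, with at least 10 reads in each part in the pair. Shared sequence means words of 25 nucleotides found in GENCODE transcripts of other loci on either strand. Other genes are named from fixed lists where they had at least 1000 CDS reads over the 3 libraries, with Pgam2 and Tigar added after their values were seen. Mog and Mobp are named as markers at 0 reads, and the Gapdh copies from the search for shared sequence. The genes and lists were chosen with earlier results of these data known. The start codon window of Gapdh is not reported here.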

Additional observations from a re-analysis of the deposited data

How the results depend on the processing

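Medians are listed where they changed sign or left the 95% order-statistic interval of the members' median, which is wide with 10 genes, and shares where they left their Wilson interval. With only coding segments in which at most 10% of words occur elsewhere, the median CDS ratio became 0.28 in Harr against Chx and 0.46 against WT, where a single Aldoa segment with 36 reads over the 3 libraries set the sign; without it, a choice made after seeing the data, they were -0.38 and -0.28. With all aligned reads as the scale the same medians became -1.38 and -1.37. The median 5′UTR to CDS ratio in Chx against WT turned to 0.25 on the most read transcripts and to 0.078 without Gapdh, a choice made after seeing the data. Keeping the segment with the start codon turned the later to earlier median in Chx against WT to -0.077. Inside their intervals but visibly lower were the later to earlier medians with that segment kept, 1.35 and 1.097 for Harr against Chx and WT, and the 3′UTR median in Harr against WT on the most read transcripts, 3.28. Without Aldoa the members' 3′UTR share in Harr was 3.59%, and it moved little in Chx (0.0376%) and WT (0.3001%). Without a read minimum the shares of all genes with a higher 5′UTR ratio were 49.2% (Harr against Chx), 51.2% (Harr against WT) and 15.3% (Chx against WT), and over UTRs free of any CDS they came to 90.0%, 95.1% and 31.2%. Without the Aldoa segment that holds the short form's start codon, the first 300 nucleotides gave -2.09 in Harr against Chx. The members' share of CDS reads was 0.495%, 0.324% and 0.499% (Chx, Harr, WT) on the most read transcripts, and 0.558%, 0.325% and 0.572% without segments holding start codons. The causes were not tested. For Pgk1 the most read transcript is a truncated one whose 3′UTR covers CDS of the full form. No paired analysis was possible because each treatment has 1 library, and none could be left out. The depth of Harr limits its low counts.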

Other observations

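Pyruvate dehydrogenase, which commits pyruvate to the citric acid cycle, was read at levels between those of the glycolytic enzymes. Pdha1, its catalytic alpha subunit, had 237 RPKM in Chx, 182 in Harr and 216 in WT, close to Ldhb in Chx and WT and above it in Harr. Dlat, the acetyltransferase, had 75.1, 55.5 and 71.7, and Dld, the dehydrogenase that several complexes share, had 73.0, 42.5 and 85.5. Pdhb, the beta subunit that pairs with Pdha1, had 55.0, 14.0 and 56.7. In Harr against Chx, Pdha1 had a log2 CDS ratio of 0.17 and Pdhb of -1.43 although their CDS lengths, 1173 and 1080 nucleotides, are alike. Of the 10 genes of this list with at least 100 CDS reads, 2 were at least 2-fold lower in Harr, the other being the inhibitory kinase Pdk3 at -1.50, where 13.7% of all genes were.

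The pentose phosphate pathway, which makes NADPH from glucose 6-phosphate, had its highest level in Tkt, its transketolase, with 174 RPKM in Chx, 110 in Harr and 162 in WT. Taldo1, the transaldolase, had 83.6, 23.5 and 87.9, and G6pdx, the enzyme of entry, had 18.2, 8.28 and 16.9. In WT G6pdx was thus below each of the 10 glycolytic enzyme genes described above, Gapdh included. Taldo1 at -1.28 and Pgls at -1.47 were the 2 of 7 genes at least 2-fold lower in Harr than in Chx, where 13.7% of all genes were, and 7 of 7 had a higher 5′UTR to CDS ratio in Harr by the 2-fold rule, where 88.8% of all genes did.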
